A study of Homo sapiens with 9 samples.

Results

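The genes of the insulin-like growth factor (IGF) binding proteins IGFBP2, IGFBP3, IGFBP4, IGFBP5, IGFBP6 and IGFBP7, and the gene of the IGF-like ligand IGFL1, were followed across 9 expression arrays of MCF10A cells. MCF10A is a human mammary epithelial cell line that is immortalized but does not form tumours. Every probe set whose annotation named exactly 1 of the 7 symbols was taken, which gave 15 of the 54675 probe sets on the array and 7 of the 19775 genes that a single-gene probe set named. The 7 genes were picked with their signals in these 9 arrays in view, so their values are given as a description, with no p-value. A change in one of them is called where the fit across all probe sets called it.

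All arrays came from MCF10A cells infected with a pBabe retrovirus and then held in assay medium with 2% horse serum and no epidermal growth factor (EGF). The vector group (n = 3) carried the empty virus and received no EGF. The group labelled ERBB2 (n = 3) carried pBabe-ErbB2, which encodes the receptor tyrosine kinase ERBB2, and also received no EGF. The EGF group (n = 3) carried the empty virus and was given EGF at 50 ng/ml for 2 h before harvest. Before the assay the cells grew in DMEM/F12 with 5% horse serum, to which insulin (10 microgram/ml), cholera toxin (100 ng/ml), hydrocortisone (0.5 microgram/ml) and EGF (20 ng/ml) were added. Long-term expression from a virus is thus set against a short pulse of ligand, so the type and the length of the stimulus differ together. The labels call the arrays of a group biological replicates but name neither separate infections nor clones as their source, so the error terms measure the spread between these samples.

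IGFBPs are secreted proteins that bind IGF1 and IGF2 and control how much of each ligand reaches the type 1 receptor, IGF1R, a tyrosine kinase that signals through IRS adaptors to PI3-kinase and AKT. Proteases such as PAPPA release the ligand by cutting the binding protein, and the stanniocalcins STC1 and STC2 inhibit PAPPA. In mammary tissue the IGFs support epithelial growth and survival, and IGFBP5 is known for its rise when the gland regresses after lactation.

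The promoters of the 3 genes with the largest changes are shown because the array results turn on these genes. RefSeq start sites on GRCh38.p14 were used, and each window runs from 250 bases before the start site to 50 bases after it, 5′ to 3′ on the plus strand, which is the strand of all 3 genes. The first IGFBP2 window is chr2:216632578-216632877, the other IGFBP2 window is chr2:216633170-216633469, the IGFBP6 window is chr12:53097417-53097716 and the IGFL1 window is chr19:46229492-46229791. The table holds 3 IGFBP2 promoters, of which the first 2 by position are printed. Capitals mark each match to 1 of 7 searched motifs, and no base lay in more than 1 match.
IGFBP2, first start site: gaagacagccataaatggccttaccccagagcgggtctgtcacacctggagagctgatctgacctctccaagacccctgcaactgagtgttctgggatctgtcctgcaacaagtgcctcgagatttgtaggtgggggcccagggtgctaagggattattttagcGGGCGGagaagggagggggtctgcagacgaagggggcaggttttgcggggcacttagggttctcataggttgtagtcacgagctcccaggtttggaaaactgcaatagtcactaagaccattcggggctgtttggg
IGFBP2, other start site: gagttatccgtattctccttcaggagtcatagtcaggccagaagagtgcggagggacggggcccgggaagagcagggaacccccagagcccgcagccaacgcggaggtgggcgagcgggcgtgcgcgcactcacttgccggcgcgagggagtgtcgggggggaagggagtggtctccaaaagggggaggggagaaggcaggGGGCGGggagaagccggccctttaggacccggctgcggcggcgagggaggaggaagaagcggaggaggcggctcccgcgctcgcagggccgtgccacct
IGFBP6: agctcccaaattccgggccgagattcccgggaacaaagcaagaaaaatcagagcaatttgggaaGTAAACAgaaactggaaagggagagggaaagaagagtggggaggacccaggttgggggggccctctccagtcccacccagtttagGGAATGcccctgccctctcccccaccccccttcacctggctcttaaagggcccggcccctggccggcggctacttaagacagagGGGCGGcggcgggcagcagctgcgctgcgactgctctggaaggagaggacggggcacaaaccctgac
IGFL1: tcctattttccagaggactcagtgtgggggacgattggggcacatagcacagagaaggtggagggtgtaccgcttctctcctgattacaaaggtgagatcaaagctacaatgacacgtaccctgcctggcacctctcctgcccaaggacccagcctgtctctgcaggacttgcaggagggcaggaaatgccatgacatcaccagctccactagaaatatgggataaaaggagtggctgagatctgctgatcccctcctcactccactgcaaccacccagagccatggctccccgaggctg

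Both strands were searched for the TATA box TATAAA, the GC box GGGCGG, the E-box CACGTG, the AP-1 site TGANTCA, the forkhead site GTAAACA, the TEAD site GGAATG and the E2F site TTTNNCGC. The 2 IGFBP2 windows each held a GC box, which begins 86 bases before the start site in the first and 49 bases before it in the other. The IGFBP6 window held a forkhead site that begins 186 bases before the start, a TEAD site that begins 101 bases before it and a GC box that begins 17 bases before it. The IGFL1 window held none of the 7. Among 35116 promoters of the same length, 45.0% held the GC box, 3.42% the forkhead site, 14.0% the TEAD site, 11.5% the TATA box, 7.26% the E-box, 7.71% the AP-1 site and 6.89% the E2F site. The G and C share was 55.3% and 70.0% in the IGFBP2 windows, 61.7% in the IGFBP6 window and 55.3% in the IGFL1 window, against a median of 58.7% over all promoters. These matches describe the letters only, and binding was not measured.

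The array signals were the authors' values from MAS5, an Affymetrix algorithm that gives 1 linear brightness per probe set, and the mean of each array without its 2% highest and lowest signals was 100.03. The median signal was 19.85 to 20.18 in the vector group, 17.94 to 20.06 in the group labelled ERBB2 and 15.57 to 16.9 in the EGF group, and 44.1% to 50.6% of the probe sets of an array lay under 16. Detection calls were not used here, so whether a low signal exceeded background is not known. The brightest ERBB2 probe set (216836_s_at) was lower in the group labelled ERBB2, at 98.8 ± 23.1 against 174.0 ± 48.0 (SD, n = 3) in the vector group. Its log2 change of -0.71 (SE 0.20, limma adjusted p = 0.006756) was no longer called without vector replicate 2 (-0.55) or without ERBB2 replicate 2 (-0.54). A much dimmer ERBB2 probe set (210930_s_at) was higher (log2 change 0.89, limma adjusted p = 0.008824). It read 5.68 to 22.5 in the vector group and 34.1 to 38.5 in the group labelled ERBB2. The third tested, 234354_x_at, was also dim and was not called (0.10, limma adjusted p = 0.8236). The labels do not say which bases of ERBB2 the virus carries, and the positions of the probes were not used here, so the array gives no settled check of that label. Control probe sets also differed with the group labelled ERBB2: the signal of the 5′ ACTB control over that of its 3′ control was 0.701 to 0.796 there, 0.325 to 0.436 in the vector group and 0.378 to 0.505 in the EGF group. The 3′ 18S control read 11926 to 13513 in the group labelled ERBB2, 1944.7 to 4569.7 in the vector group and 2102.6 to 3369 in the EGF group. The part of these differences in the results below was not tested.

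Changes below are differences of log2(signal + 16) between group means with their standard errors, fitted with limma over all 9 arrays. A change is called at a Benjamini-Hochberg adjusted p under 0.05 over 32768 probe sets that passed a filter on low signals. IGFBP6 was lower and IGFBP2 and IGFL1 were higher in the group labelled ERBB2 than in both other groups. IGFBP7 was higher there by 1 of its 2 bright probe sets, and IGFBP3, IGFBP4 and IGFBP5 were dim on all arrays. After 2 h of EGF the log2 changes of IGFBP2, IGFBP6, IGFBP7 and IGFL1 against the vector group lay between -0.45 and 0.44.

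**Figure D1:**
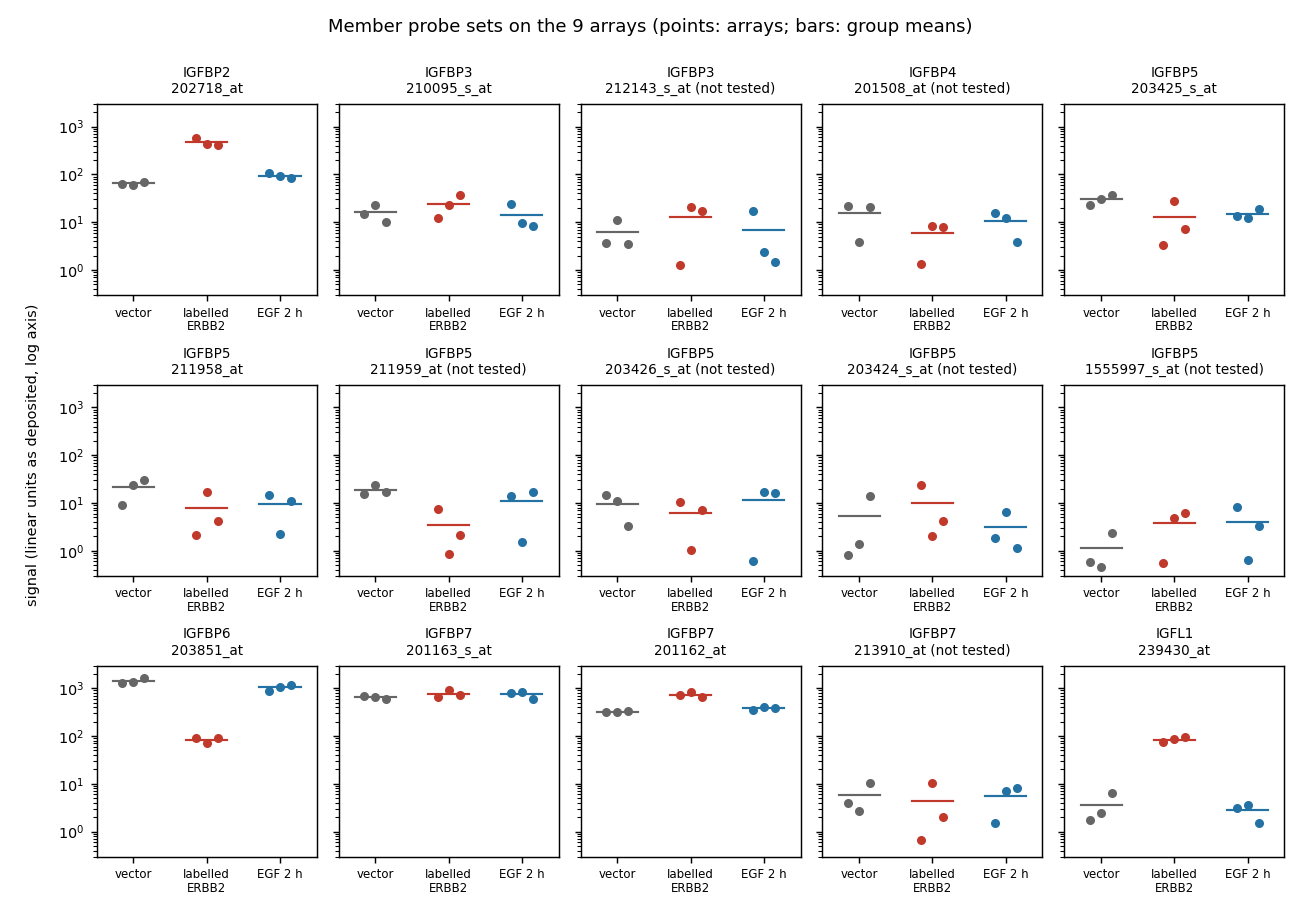
Signal (linear, deposited units, log axis) of the 15 probe sets of the IGF binding proteins and IGFL1, with 1 point per array and a bar at each group's mean. Probe sets that did not pass the filter are marked as not tested. IGFBP6 lies between 72.0 and 90.3 in the group labelled ERBB2 and at 890.9 or more in the other groups, while IGFBP2 and IGFL1 are highest in the group labelled ERBB2.

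IGFBP6, which binds IGF2 in preference to IGF1, was measured by 1 probe set (203851_at). Its signal was 1279.5, 1376 and 1673 on the vector arrays, 89.6, 72.0 and 90.3 on the arrays labelled ERBB2, and 890.9, 1082 and 1177 on the EGF arrays. The 3 groups did not overlap, with the vector arrays highest, the EGF arrays next and the arrays labelled ERBB2 far below both. The mean fell from 1443 ± 205 in the vector group to 83.97 ± 10.3 (SD, n = 3) in the group labelled ERBB2, a 17.2-fold difference of signals. The log2 change was -3.86 ± 0.12 (SE, 95% interval -4.11 to -3.61), and 0.0824% of all tested probe sets changed by at least that much in either direction. The gene was chosen on these values, so that share is a description and no test. Against the EGF group, the change in the group labelled ERBB2 was -3.41 ± 0.12 (SE), a 12.5-fold difference of signals.

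After EGF, the IGFBP6 mean was 1050.1 ± 146 (SD, n = 3), with a log2 change of -0.45 ± 0.12 (SE, 95% interval -0.70 to -0.20) against the vector group, which was called. That call ended when all arrays were set to the same median signal (-0.16), with a spread that did not follow the signal level (-0.45), without vector replicate 3 (-0.34) and without EGF replicate 1 (-0.34). In a bulk sample, fewer cells of a type and less RNA per cell cannot be told apart.

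IGFBP2 carries an integrin-binding RGD sequence beside its IGF-binding domains, and its 1 probe set (202718_at) moved the opposite way. Its signal was 63.7, 61.1 and 69.3 on the vector arrays, 569, 437 and 409.7 on the arrays labelled ERBB2, and 109, 90.8 and 82.4 on the EGF arrays. The order was reversed from that of IGFBP6: the arrays labelled ERBB2 were highest, the EGF arrays next and the vector arrays lowest, with no overlap. The mean rose from 64.7 ± 4.19 to 472 ± 85.3 (SD, n = 3), a 7.29-fold difference of signals and a log2 change of 2.58 ± 0.15 (SE, 95% interval 2.28 to 2.89). Against the EGF group the change was 2.14 ± 0.15 (SE, 95% interval 1.84 to 2.45).

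The EGF mean of IGFBP2 was 94.0 ± 13.6 (SD, n = 3), 1.45 times that of the vector group, with a log2 change of 0.44 ± 0.15 (SE, 95% interval 0.14 to 0.74) that was called. This call ended with a pseudocount of 64 (0.29), with a spread that did not follow the signal level (0.44), without vector replicate 1 (0.43) or 2 (0.41) and without EGF replicate 1 (0.35) or 2 (0.46).

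IGFBP7 is the relative of the family that binds IGFs weakly and is also deposited in vessel walls and other matrix. The probe set 201162_at read 314, 326 and 334 on the vector arrays, 716, 830 and 668 on the arrays labelled ERBB2, and 347, 406 and 384 on the EGF arrays. By this probe set the arrays labelled ERBB2 stood above all others, and the EGF arrays lay just above the vector arrays. Its mean was 2.27 times as high in the group labelled ERBB2 as in the vector group, with a log2 change of 1.14 ± 0.10 (SE, 95% interval 0.93 to 1.35), and 0.93 ± 0.10 (SE) against the EGF group.

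The other bright IGFBP7 probe set, 201163_s_at, did not share that pattern. It read 701, 664 and 602 on the vector arrays, 664, 906 and 724 on the arrays labelled ERBB2, and 799.8, 841 and 606 on the EGF arrays, and all 3 groups overlapped. Its log2 change between the group labelled ERBB2 and the vector group was 0.21 ± 0.12 (SE, 95% interval -0.05 to 0.46) and was not called. The interval does not reach the change given by 201162_at, so the probe sets disagree and no single size can be given for IGFBP7. Neither probe set was called after EGF (0.18 ± 0.12 and 0.21 ± 0.10, SE), although both became called when all arrays were set to the same median (0.47 and 0.50 in the same order). The third IGFBP7 probe set, 213910_at, did not pass the filter and read at most 10.4.

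IGFL1 encodes a small secreted protein of the IGF-like family, which binds the receptor IGFLR1 rather than IGF1R. Its 1 probe set (239430_at) read 1.75, 2.45 and 6.38 on the vector arrays, 74.7, 85.0 and 93.6 on the arrays labelled ERBB2, and 3.11, 3.66 and 1.55 on the EGF arrays. It was near the bottom of the scale on the 6 arrays with the empty virus and clearly above it on the arrays labelled ERBB2. This probe set passed the filter only through the arrays labelled ERBB2, so it had to differ between the groups. The log2 change was 2.37 ± 0.25 (SE, 95% interval 1.85 to 2.88) against the vector group and 2.42 ± 0.25 (SE) against the EGF group. The size depends on the pseudocount: it was 4.37 against the vector group with a pseudocount of 1 and 1.14 with 64. EGF and vector arrays overlapped, with a log2 change of -0.05 ± 0.25 (SE, 95% interval -0.56 to 0.46).

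IGFBP3, the main IGF carrier of serum, was dim and scattered. The probe set 210095_s_at read 14.98, 22.9 and 10.3 on the vector arrays, 12.1, 22.9 and 36.6 on the arrays labelled ERBB2, and 24.4, 9.80 and 8.42 on the EGF arrays. All groups overlapped. The log2 changes were 0.29 ± 0.30, -0.11 ± 0.30 and 0.39 ± 0.30 (SE) for ERBB2 against vector, EGF against vector and ERBB2 against EGF, and none was called. The interval of the first ran from -0.33 to 0.90, so a moderate change either way was not detectable here. The other IGFBP3 probe set, 212143_s_at, did not pass the filter and lay between 1.30 and 21.1.

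IGFBP5, a matrix-binding member, had 6 probe sets, of which 2 passed the filter. The brighter, 203425_s_at, read 22.9, 31.3 and 36.5 on the vector arrays, 3.30, 28.1 and 7.13 on the arrays labelled ERBB2, and 13.2, 12.1 and 19.0 on the EGF arrays. ERBB2 replicate 2 lay among the vector arrays, while all EGF arrays lay below them. The log2 change of -0.76 ± 0.30 (SE) in the group labelled ERBB2 was called, but the call ended under 14 of 18 alternatives, among them leaving out ERBB2 replicate 1 (-0.52) or 3 (-0.65), vector replicate 2 (-0.74) or 3 (-0.67) or any EGF array (-0.76 each). Its size was -1.61 with a pseudocount of 1 and -0.31 with 64. The change after EGF, -0.58 ± 0.30 (SE), was not called. The other tested probe set, 211958_at, had log2 changes of -0.64 ± 0.33 and -0.54 ± 0.33 (SE) against the vector group in the group labelled ERBB2 and after EGF, neither of them called. Just under the filter, 211959_at read 15.6, 23.8 and 17.3 on the vector arrays and 7.53, 0.844 and 2.13 on the arrays labelled ERBB2, which did not overlap. The remaining 3 probe sets read at most 23.9, their groups overlapped, and their means did not share a direction. In the vector group and the group labelled ERBB2 the means were 9.71 and 6.24 for 203426_s_at and 5.35 and 10.1 for 203424_s_at. For 1555997_s_at they were 1.12 and 3.89.

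IGFBP4, the substrate of PAPPA, had 1 probe set (201508_at), which did not pass the filter. It read 21.8, 3.77 and 20.7 on the vector arrays, 1.34, 8.23 and 8.12 on the arrays labelled ERBB2 and 15.96, 11.98 and 3.87 on the EGF arrays, so the spread within a group was as wide as between groups. At the filter's edge, a mean log2(signal + 16) of 4.73, the IGFBP5 probe set 211958_at was just inside at 4.78 and 211959_at just outside at 4.70.

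**Figure D2:**
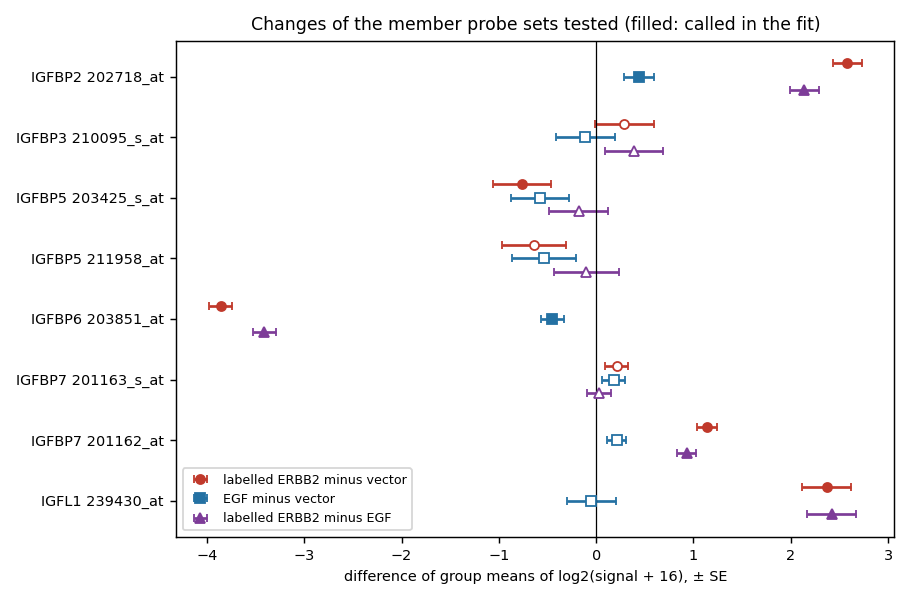
Difference of log2(signal + 16) between group means for the 8 tested probe sets in the 3 comparisons, ± SE from the limma fit, with filled symbols where the change was called. IGFBP6 stands at -3.86 and IGFBP2 at 2.58 in the group labelled ERBB2 against the vector group, and at -0.45 and 0.44 after EGF.

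Of the 15 probe sets, 8 passed the filter. In the group labelled ERBB2 against the vector group, 3 of these 8 were called higher (IGFBP2, IGFBP7 by 201162_at, IGFL1) and 2 lower (IGFBP6, IGFBP5 by 203425_s_at). Over all tested probe sets 38.7% were called, 17.7% higher and 21.0% lower. After EGF, 1 of 8 was called higher (IGFBP2) and 1 lower (IGFBP6), where 28.8% of all were called, 12.9% higher and 15.9% lower. Between the group labelled ERBB2 and the EGF group 3 of 8 were called higher and 1 lower, where 23.8% of all were called, 11.6% higher and 12.2% lower. The groups did not overlap for 4 of the 8 in each of these comparisons, against 47.0%, 42.2% and 37.9% of all probe sets. The median log2 change of the 8 was 0.25, -0.08 and 0.21, beside -0.07, -0.11 and 0.03 over all tested probe sets. Nothing is read from these counts, since the genes were chosen on the same values and the comparisons share arrays.

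Genes with the most similar pair of changes (ERBB2 against vector and EGF against vector) were sought by Euclidean distance among 13720 other genes, over 3 groups. Nearest to IGFBP6 were KRT14 at a distance of 0.18, GLUL at 0.44 and KRT15 at 0.50 log2 units. KRT14 and KRT15 are keratins of basal epithelial cells. Nearest to IGFBP2 were CDK1 at 0.18, MCM5 at 0.20 and CES1 at 0.22. Nearest to IGFL1 were PKIB at 0.19, PLK1 at 0.22 and SLC26A2 at 0.31. For IGFBP3 (210095_s_at), IGFBP5 (203425_s_at) and IGFBP7 (201163_s_at, the probe set without a called change), the nearest genes lay within 0.02, and they are not named.

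Markers of breast and other cell types were measured beside these genes. Of 8 basal epithelial markers 5 were named by a probe set, 0 were called higher and 3 lower in the group labelled ERBB2 against the vector group, and their summed signal was 16729 to 19085 in the vector group, 8279.1 to 9003.5 in the group labelled ERBB2 and 13276 to 15754 in the EGF group. Of 8 luminal markers 7 passed the filter, with 2 called higher and 5 lower, and the sum was 9890.9 to 10339, 10835 to 12152 and 10592 to 11021 in the same order. All 8 fibroblast markers were named and 4 passed the filter, with 0 called higher and 2 lower (DCN and COL1A1), and DCN, a matrix proteoglycan, gave most of the list's signal, at 1345 ± 82.8 (SD, n = 3) in the vector group. Their sum was 1372.8 to 1543.6 in the vector group, 419 to 601 in the group labelled ERBB2 and 538 to 589 in the EGF group. COL1A2 and THY1 passed the filter and were not called, while COL3A1, LUM, PDGFRA and PDGFRB did not pass it. Fibroblasts also express IGFBP4, IGFBP5, IGFBP6 and IGFBP7. Of 6 endothelial markers 2 passed the filter, PECAM1 called higher and KDR lower, while VWF, CDH5, TEK and CLDN5 did not pass, and the sum was 89.0 to 112 in the vector group, 119 to 138 in the group labelled ERBB2 and 48.3 to 74.4 in the EGF group. Of 5 named blood markers 2 passed and 0 were called, with sums of 217 to 232, 159 to 229 and 212 to 239.6. No marker signal was listed at 0, and the part of these markers in the results was not tested.

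The other genes of the IGF axis were taken from 8 lists of 84 genes with the above genes left out. A probe set naming 1 gene existed for 75 of them, and 60 passed the filter by their probe set of highest mean. In the group labelled ERBB2 against the vector group 9 of 60 rose and 26 fell, where 45.8% of all tested genes were called, 20.8% higher and 25.0% lower. The median log2 change of the 60 was -0.25, beside -0.07 over all 13726 genes. After EGF 13 rose and 19 fell, where 17.2% of all genes were called higher and 18.9% lower, 36.1% in all, and the medians were -0.02 and -0.10. With all arrays set to the same median the EGF split became 22 risen and 8 fallen. Between the group labelled ERBB2 and the EGF group 4 were higher and 20 lower, where 28.8% of all genes were called (1754 higher and 2203 lower of 13726), and the medians were -0.22 and 0.01.

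**Figure D3:**
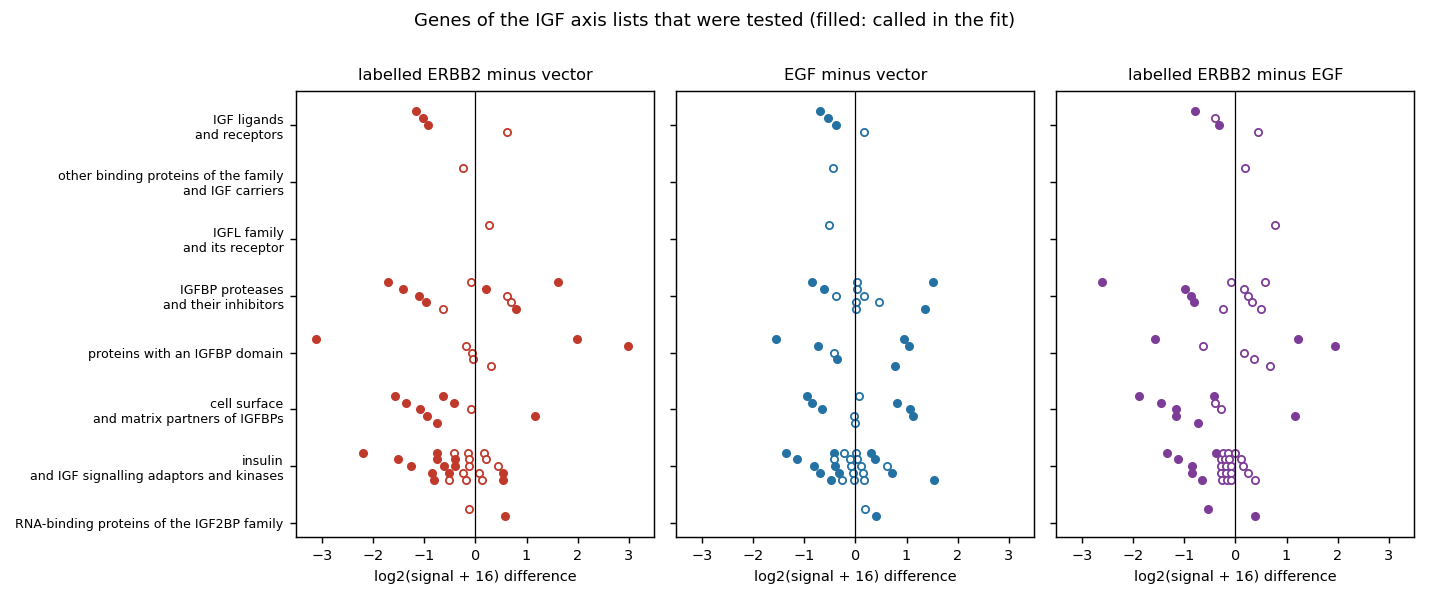
Log2 change of each tested gene of the IGF axis lists in the 3 comparisons, with a point per gene that is filled where the change was called. Across the lists 9 genes were higher and 26 lower in the group labelled ERBB2 against the vector group, and 13 higher and 19 lower after EGF.

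Among the ligands and receptors 4 genes were tested, of which 0 rose and 3 fell both in the group labelled ERBB2 and after EGF. IGF1R, the signalling receptor, read 424, 334 and 360.1 on the vector arrays, 146, 172 and 150.3 on the arrays labelled ERBB2 and 292, 281 and 271 on the EGF arrays (225330_at). The groups did not overlap. Its log2 change in the group labelled ERBB2 was -1.17 ± 0.12 (SE, limma adjusted p = 7.88e-08) against the vector group and -0.79 ± 0.12 (SE, adjusted p = 3.403e-05) against the EGF group. Of the 4 dimmer IGF1R probe sets tested, 2 were called lower against the vector group (-0.97, adjusted p = 0.00016, and -0.38, adjusted p = 0.04635), and 0 were called against the EGF group, where their log2 changes ran from -0.29 to 0.58. The size in IGF1R, and the call against the EGF group, thus rest on the brightest probe set. The drop of -0.38 after EGF (adjusted p = 0.01688) was lost with equal array medians (-0.09), without vector replicate 1 (-0.29), without EGF replicate 3 (-0.36) and with a spread that did not follow the signal level.

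INSR, the insulin receptor, which forms hybrids with IGF1R, fell from 137 ± 24.2 to 64.5 ± 14.1 (SD, n = 3) in the group labelled ERBB2, a log2 change of -0.93 (limma adjusted p = 0.000194). After EGF it read 88.8 ± 10.8, and that change of -0.54 (adjusted p = 0.0229) was lost with quantile normalization (-0.47), with equal array medians (-0.28), without vector replicate 3 (-0.41) and without EGF replicate 2 (-0.46). IGF2R, which takes IGF2 up for degradation, fell from 640.1 ± 45.0 to 307 ± 17.9 in the group labelled ERBB2 (-1.02, adjusted p = 4.244e-08) and to 388 ± 18.9 (SD, n = 3) after EGF (-0.70, adjusted p = 1.314e-05). Of the dimmer probe sets, 2 of 4 for INSR and 1 of 2 for IGF2R were called lower in the group labelled ERBB2 against the vector group, and 1 of each had a positive change that was not called (0.47 and 0.35). With equal array medians the IGF2R change after EGF shrank to -0.40. IGF1 itself was dim, at 2.04 to 26.3 over the 9 arrays, and its log2 change of 0.62 in the group labelled ERBB2 was not called. Its probe set passed the filter only through the arrays labelled ERBB2, so no p-value is given. IGF2 was not named by a single-gene probe set.

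The binding-protein relatives outside the 7 genes gave little signal. IGFBP1 did not pass the filter, at 0.560 to 11.5. IGFALS, the serum partner of IGFBP3, was not called (log2 change -0.25 ± 0.33, SE, 95% interval -0.94 to 0.45, in the group labelled ERBB2, limma adjusted p = 0.603). IGFLR1, the receptor of IGFL1, read 29.8 ± 8.77 in the vector group, 39.2 ± 13.4 in the group labelled ERBB2 and 17.8 ± 13.7 (SD, n = 3) in the EGF group, and none of its changes was called.

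**Figure D4:**
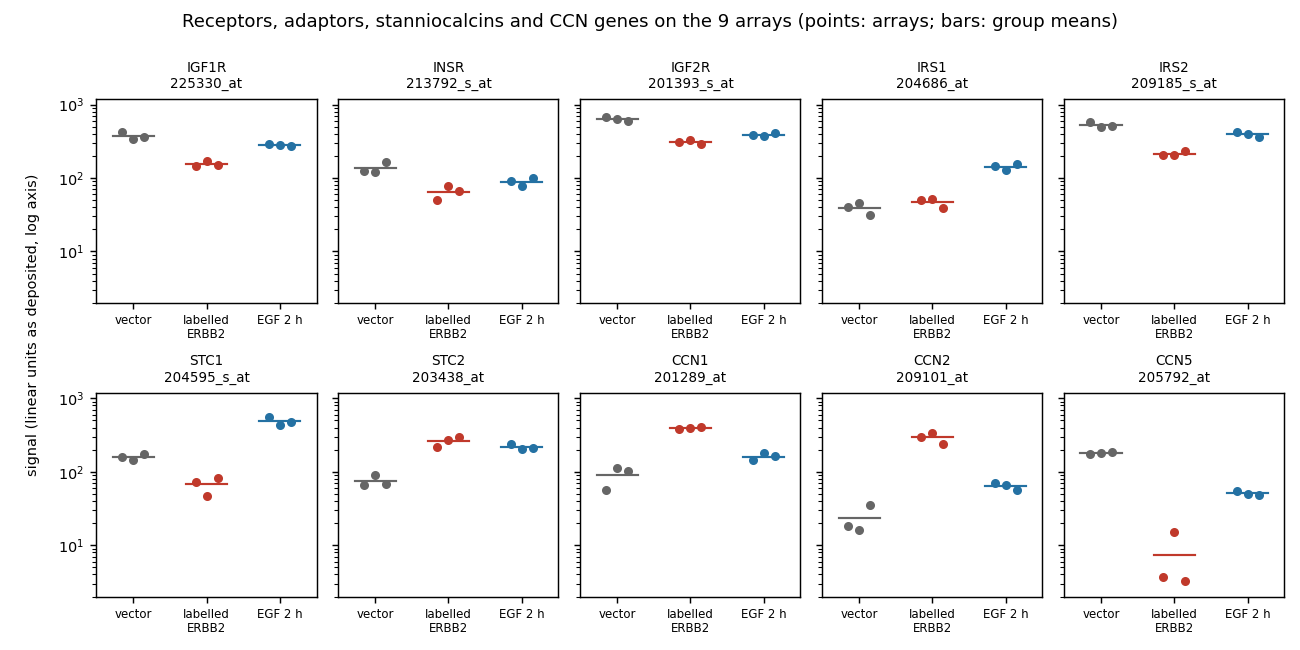
Signal (linear, deposited units, log axis) of selected IGF axis genes on each array, with a bar at each group's mean. IGF1R is lowest in the group labelled ERBB2, STC1 is highest in the EGF group and STC2 is above the vector group in both.

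Of the IGFBP proteases and their inhibitors 11 were tested, with 3 higher and 4 lower in the group labelled ERBB2, and 2 higher and 2 lower after EGF. The PAPPA inhibitor STC1 read 159.9, 147 and 174 on the vector arrays, 72.9, 46.9 and 82.4 on the arrays labelled ERBB2 and 549, 435 and 477 on the EGF arrays. It thus moved in opposite directions: -1.10 in the group labelled ERBB2 (limma adjusted p = 7.623e-06) and 1.51 after EGF (adjusted p = 2.689e-07), with a direct difference of -2.61 ± 0.15 (SE, adjusted p = 2.071e-10). STC2 rose in both, from 74.5 ± 13.0 to 261 ± 40.3 (1.61, adjusted p = 1.769e-08) and to 217 ± 18.4 (SD, n = 3; 1.37, adjusted p = 3.643e-07), and the difference between the last 2 was 0.24 ± 0.14 (SE, adjusted p = 0.2575, 95% interval -0.06 to 0.54).

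PAPPA was read by its probe set of highest mean log2(signal + 16). The signal was 16.2 ± 1.72 in the vector group and 34.4 ± 14.2 (SD, n = 3) in the group labelled ERBB2. That log2 change of 0.61 was not called (limma adjusted p = 0.07768). Of 5 other tested PAPPA probe sets, 1 was called higher (0.73, adjusted p = 0.02316). It read 18.1 ± 5.19 and 40.8 ± 9.89 (SD, n = 3) in the same groups, so it was not dimmer there. The proteases MMP7, CTSD and PLAU fell in the group labelled ERBB2, by log2 changes of -1.71 (adjusted p = 8.063e-06), -1.41 (adjusted p = 1.642e-08) and -0.97 (adjusted p = 1.765e-05). MMP7 read 3.98 to 9.89 on the arrays labelled ERBB2, and its change was -3.0 with a pseudocount of 1 and -0.79 with 64. PLAU was not called after EGF (0.01, adjusted p = 0.9553, 95% interval -0.29 to 0.32).

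Of the proteins that carry an IGFBP domain 7 were tested. CCN2, a matricellular protein also known as connective tissue growth factor, read 18.5, 16.2 and 35.1 on the vector arrays, 301, 341 and 237 on the arrays labelled ERBB2 and 69.6, 65.4 and 56.9 on the EGF arrays. The 3 groups did not overlap, in the order also seen for IGFBP2. Its log2 changes were 2.99 ± 0.19 (SE, limma adjusted p = 1.533e-10) in the group labelled ERBB2 and 1.05 ± 0.19 (SE, adjusted p = 0.0002524) after EGF. With a pseudocount of 64 the CCN2 change after EGF was 0.56. CCN1 rose as well, by 1.98 (adjusted p = 8.278e-09) and 0.77 (adjusted p = 0.001423).

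CCN5, a family member without the C-terminal domain of the others, went the other way. It read 175, 182 and 187 on the vector arrays, 3.74, 15.04 and 3.25 on the arrays labelled ERBB2 and 55.4, 50.4 and 48.9 on the EGF arrays, which is the order of IGFBP6. The log2 changes were -3.12 ± 0.20 (SE, limma adjusted p = 2.131e-10) in the group labelled ERBB2 and -1.55 ± 0.20 (SE, adjusted p = 6.596e-06) after EGF. Since the arrays labelled ERBB2 read near the bottom of the scale, the first size depends on the pseudocount: it was -4.73 with 1 and -1.79 with 64. CCN3 rose after EGF (0.95, adjusted p = 0.005009) and was not called in the group labelled ERBB2 (0.31, adjusted p = 0.3406). Its EGF change was 1.64 with a pseudocount of 1 and 0.42 with 64. The 1 other tested CCN3 probe set had an EGF change of the same sign that was not called.

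Of the cell surface and matrix partners of IGFBPs 9 were tested, with 1 higher and 7 lower in the group labelled ERBB2, and 3 higher and 3 lower after EGF. The riser was THBS1, a matrix glycoprotein, at 1.16 (limma adjusted p = 1.196e-07), which was not called after EGF (-0.02, adjusted p = 0.9423, 95% interval -0.26 to 0.23). Of 6 other tested THBS1 probe sets, 5 were also called higher in the group labelled ERBB2. Their log2 changes ran from 0.88 to 2.94, so no single size can be given for THBS1. After EGF 1 of the 6 was called higher (0.85, adjusted p = 0.01687). LRP1, an endocytic receptor that binds IGFBP3, fell by 1.58 on the log2 scale (adjusted p = 3.465e-05) and FN1, fibronectin, fell by 1.35 (adjusted p = 3.656e-06). SDC1, a cell surface proteoglycan, fell from 1071 ± 48.6 to 625 ± 34.1 in the group labelled ERBB2 (-0.76, adjusted p = 5.285e-07) and rose to 2354 ± 254 (SD, n = 3) after EGF (1.12, adjusted p = 6.42e-09). ITGA5, the integrin subunit that pairs with ITGB1 as a fibronectin receptor, showed the same opposition (-0.63, adjusted p = 0.0003863, and 0.82, adjusted p = 4.063e-05). The direct differences between the group labelled ERBB2 and the EGF group were -1.88 for SDC1 (adjusted p = 4.294e-12) and -1.45 for ITGA5 (adjusted p = 4.168e-08). PTPRZ1, a receptor phosphatase and 1 of the 3 called higher after EGF, had a log2 change of 1.07 there. It passed the filter only through the EGF arrays, so it had to differ and no p-value is given. Pseudocounts of 1 and 64 gave -2.33 and -0.84 for LRP1 in the group labelled ERBB2 and 1.84 and 0.48 for PTPRZ1 after EGF.

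Of the 25 tested adaptors and kinases of insulin and IGF signalling, 2 rose and 11 fell in the group labelled ERBB2, and 4 rose and 8 fell after EGF. The adaptors IRS1 and IRS2, which couple IGF1R to PI3-kinase, differed. IRS1 read 38.7 ± 7.08 in the vector group, 46.7 ± 7.13 in the group labelled ERBB2 and 143 ± 12.4 (SD, n = 3) in the EGF group, with log2 changes of 0.20 (limma adjusted p = 0.4046) and 1.54 (adjusted p = 1.161e-06), the latter 1.01 with a pseudocount of 64. IRS2 fell from 529 ± 45.5 to 214 ± 14.6 (SD, n = 3) in the group labelled ERBB2 (-1.25, adjusted p = 7.825e-09), and its smaller drop after EGF (-0.40, adjusted p = 0.0057) was lost with equal array medians (-0.11).

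FOXO1, a transcription factor that AKT holds out of the nucleus, fell from 770.2 ± 44.0 to 157 ± 19.8 in the group labelled ERBB2 (-2.19, limma adjusted p = 2.214e-11) and to 295 ± 46.7 (SD, n = 3) after EGF (-1.35, adjusted p = 5.428e-08). FOXO3 fell likewise on the log2 scale, by 1.52 (adjusted p = 4.85e-12) and by 1.15 (adjusted p = 7.777e-10). PIK3R1, a regulatory subunit of PI3-kinase, fell by 0.81 on the log2 scale in the group labelled ERBB2 (adjusted p = 2.058e-07). It rose by 0.31 after EGF (adjusted p = 0.009296), a call lost under 1 of 19 alternatives. The direct difference between the group labelled ERBB2 and the EGF group was -1.12 (adjusted p = 8.552e-09). These calls rest on 1 probe set, since the 2 other tested PIK3R1 probe sets were not called in any comparison. Of the IGF2BP family, which binds IGF2 mRNA, 2 were tested: IGF2BP3 rose in the group labelled ERBB2 (0.57, adjusted p = 0.002161) and IGF2BP2 rose after EGF (0.41, adjusted p = 0.001699, and 0.71 with equal array medians).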

How the data were processed

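RNA of 9 MCF10A cultures was measured on Affymetrix arrays of 54675 probe sets. Per the submitters' processing notes, the deposited signal intensity was made by the authors with MAS5; its version is not given in the sources used here. Protocols in the labels name RNeasy total RNA and one-cycle labelling. The signals were compared as log2(signal + 16) with limma 3.58.1 in R 4.3.3: 1 model of the 3 group means over all 9 arrays (6 residual degrees of freedom), eBayes with a trend of the variance on the signal, and Benjamini-Hochberg adjustment over 32768 probe sets whose mean log2 value lay above the 40th percentile, with 62 control probe sets left out. The 3 comparisons share arrays. An exact permutation test of 3 against 3 arrays cannot go below 0.1, so none was run. The number of arrays limits the precision.

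Gene names came from the array annotation (41097 probe sets name 1 gene, of which 41043 matched the RefSeq gene table, with 0 symbols changed), and a gene outside the 7 was read by its probe set of highest mean. The genes and lists were chosen with earlier results of these data known. Named genes were all 7 genes, ERBB2, per axis list and comparison up to 3 called genes with the largest change (or else the 2 largest changes), and IGF1, IGF2, IGF1R, INSR, IGF2R, PAPPA, STC1, STC2 and IRS2 in any case. The 3 genes with the nearest changes were sought for each of the 6 genes past the filter and are named for IGFBP2, IGFBP6 and IGFL1. Pseudocounts, filters, between-array scalings, variance models, array weights, a replicate block and leaving out each array were tried.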

Additional observations from a re-analysis of the deposited data

How the results depend on the processing

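Limits: there were 3 arrays a group, the background level of low signals is not known, and the filter left out 7 of the 15 probe sets. With no filter all 15 were tested, with 5, 2 and 4 calls in the 3 comparisons. The 7 genes were chosen on these values, and IGFL1 had to differ, so ranges under the alternatives describe sizes only. Against the vector group the log2 change ranged from 2.05 to 2.83 for IGFBP2, from -4.08 to -3.34 for IGFBP6, from 1.04 to 1.23 for IGFBP7 (201162_at) and from 1.14 to 4.37 for IGFL1.

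With the filter at the 60th percentile, 4 in place of 8 probe sets of the 7 genes were tested and 3 in place of 5 were called in ERBB2 against vector; IGFL1, IGFBP3 and IGFBP5 were not tested there. The 2 calls of EGF against vector became 1 with a pseudocount of 64 and 0 with eBayes without a trend, and 0 to 2 when single arrays were left out. With equal array medians it was 3 calls, 3 higher and 0 lower, in place of 1 higher and 1 lower. With all arrays set to the same median, the share of rises among called probe sets went from 44.8% to 78.0% for EGF against vector and from 48.7% to 23.7% for ERBB2 against EGF, and the median log2 change of all probe sets from -0.11 to 0.11 and from 0.03 to -0.13. In the axis lists the share of rises after EGF went from 40.6% to 73.3%. Same-numbered replicates did not deviate together (correlations -0.03 to 0.02 over 9 pairs), so the numbers were not taken as pairs. The replicate number as a block gave 12551, 9312 and 7618 calls over all probe sets, against 12689, 9445 and 7793 without it, and 35, 32 and 25 axis genes. No called value changed sign, and 28 uncalled values did and stayed uncalled. Of the values of single axis genes under the alternatives, 1631 stayed called or stayed uncalled, 13 gained the call and 45 lost it. For the 7 genes these numbers were 418, 2 and 24. The 28 sign changes are counted among the values that stayed uncalled.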

Other observations

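By gene order in RefSeq, IGFBP2 and IGFBP5 are neighbours among protein-coding genes. Their changes in the group labelled ERBB2 were 2.58 and -0.76, the latter by the dim probe set 203425_s_at. Its groups overlapped and its call was lost under 14 of 18 alternatives, so the direction of IGFBP5 is not settled. The other neighbour of IGFBP2, RPL37A, a ribosomal protein gene, changed by -0.37 ± 0.07 (SE, limma adjusted p = 0.0002902). SPRYD3, beside IGFBP6, changed by 0.81 ± 0.22 (SE, adjusted p = 0.006382) while IGFBP6 changed by -3.86. POLR2B, an RNA polymerase II subunit gene beside IGFBP7, changed by -0.01 ± 0.08 (SE, adjusted p = 0.9506) in the group labelled ERBB2 and by 0.55 ± 0.08 (SE, adjusted p = 3.948e-05) after EGF. TOP2A, beside IGFBP4 and a topoisomerase of dividing cells, changed by 1.60 ± 0.13 (SE, adjusted p = 3.99e-09) in the group labelled ERBB2. TNS3, beside IGFBP3, changed by -1.33 ± 0.12 (SE, adjusted p = 2.446e-08) in the group labelled ERBB2 and by -0.91 ± 0.12 (SE, adjusted p = 8.069e-06) after EGF. TNS4, the other neighbour of IGFBP4, changed by -0.31 ± 0.11 (SE, adjusted p = 0.03232) and by 0.61 ± 0.11 (SE, adjusted p = 0.0002746). TNP1, beside IGFBP5, and HIF3A, beside IGFL1, were not called in either comparison, while SOAT2, beside IGFBP6, and IGFBP1, beside IGFBP3, did not pass the filter. These are the neighbours that a single-gene probe set named, given with their values known. The antisense gene IGFBP7-AS1 did not pass the filter, with signals of 0.379 to 7.06 over the 9 arrays.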
